A study of Homo sapiens with 16 samples.

Results

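The 32 genes described here encode the enzymes and regulators of cholesterol and fatty acid synthesis. They were taken by symbol, with earlier results of these data known. All 32 were found in both deposited tables, each under 1 gene identifier, among 61906 genes, and all passed the expression filter in both cell lines. They were split by role into 8 enzymes of the mevalonate pathway, 11 enzymes that carry squalene to cholesterol, 6 regulators and transport proteins, and 7 enzymes of fatty acid synthesis and desaturation. The study depleted HNRNPH1, an RNA-binding protein that regulates splicing, in 2 established human cell lines. HEK-293T is an embryonic kidney line that carries the SV40 large T antigen and was grown in DMEM, and HT-1080 is a fibrosarcoma line that was grown in EMEM. Both media held serum and the antibiotic Plasmocin. Cells of each line received 20 nM of siHNRNPH1, a small interfering RNA that targets HNRNPH1, or of the control siNegative, for 48 h, with 3 biological replicates in each of 4 groups (12 short-read RNA-seq libraries) and 1 long-read IsoSeq pool per group. The sequence of the siRNA and the number of siRNAs used are not given in the sources used here, so loss of HNRNPH1 and any other effect of siHNRNPH1 cannot be told apart. Line, medium and sequencing depth differ together, so their parts in any difference between the lines cannot be told apart either.

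Cholesterol is built from acetyl-CoA. The mevalonate pathway joins acetyl-CoA units into HMG-CoA, mevalonate and farnesyl diphosphate, and later enzymes make squalene, close it into lanosterol and trim that to cholesterol. The transcription factors SREBP-1 and SREBP-2, the products of SREBF1 and SREBF2, switch these genes on. SCAP carries the SREBP precursors from the endoplasmic reticulum to the Golgi when sterols are scarce, and INSIG1 and INSIG2 hold SCAP back when sterols are plentiful. SREBP-2 is known mainly for the sterol genes and SREBP-1 mainly for the fatty acid genes. The sterol regulatory element that SREBPs bind and the CCAAT box that the factor NF-Y binds often lie close together in the promoters of such genes.

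The promoters of the members were therefore searched for these letters, in windows from 250 bases before to 50 bases after each RefSeq start site (GRCh38.p14), which held 28 of the 32 members. ACAT2, FDFT1, SQLE and FASN had no entry. CCAAT, on either strand, was present in 20 of 28 members (71.4%), against 34.6% of all 35116 promoters of that length and 43.4% of the genes tested in HT-1080. The sterol regulatory element TCACNCCAC was present in 1 of 28 members (3.57%), SREBF2 itself, against 1.13% of all promoters and 1.44% of the genes tested in HT-1080. Its inner part CACNCCAC, searched after the 9-letter result was seen and by construction present wherever the longer form is, was found in 6 of 28 members (21.4%), against 5.87% of all promoters and 7.73% of the genes tested in HT-1080. The E-box CACGTG was found in 4 of 28 members (14.3%), against 7.26% of all promoters and 12.4% of the genes tested in HT-1080. A gene counts once over all its start sites, as the members do. A match is a description of the letters and not a measured site. The following windows of 24 bases show the CACNCCAC matches in 4 members with roles in both arms, read 5′ to 3′ on the strand of the gene. The match, or its reverse complement, is in capitals.
IDI1, chr10:1048986-1049009, minus strand: cgggcgatGTGGCGTGgactggcg
INSIG1, chr7:155297662-155297685, plus strand: ggccggcgGTGGCGTGtgcgcacg
SCD, chr10:100347111-100347134, plus strand: gaggccggGTGGTGTGgtgtcggt
SREBF2, chr22:41832965-41832988, plus strand: cgcgccatCACCCCACgcaccgct

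A single CCAAT match is shown in the same manner for each of 4 members with large changes in HT-1080. The same is done for TM7SF2, which moved the other way there. CCAAT or its reverse complement ATTGG is in capitals. HMGCS1, MSMO1 and STARD4 held further CCAAT matches that are not shown.
HMGCS1, chr5:43313497-43313520, minus strand: cggccgcgATTGGctgtgggagcc
LSS, chr21:46228909-46228932, minus strand: gcgctctgATTGGttgcgtgggcg
MSMO1, chr4:165327522-165327545, plus strand: ccgcggagCCAATggctgggaccg
STARD4, chr5:111512681-111512704, minus strand: atcggccaCCAATcagccctccac
TM7SF2, chr11:65111790-65111813, plus strand: gagcgccgATTGGctggtgtgctg

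Library totals were 107.7 to 121.0 M (mega) expected counts in HEK-293T and 27.3 to 32.7 M in HT-1080. HNRNPH1 fell in both lines, to 234.1, 376.2 and 394.3 CPM (counts per M of the library total) from at least 1105 CPM in HEK-293T, and to between 228.5 and 231.5 CPM from at least 605.8 CPM in HT-1080. The markers chosen for each line mostly separated the lines: NEFM was at 251.5 CPM or more in HEK-293T and at most 0.033 CPM in HT-1080, and CD44 was at 1835.5 CPM or more in HT-1080 and at most 2.76 CPM in HEK-293T. NEFL did not, with 79.9 to 111.3 CPM in HT-1080. The blood cell genes PTPRC and CD3E stayed at or below 0.0186 CPM in every library. Replicate 1 of HEK-293T siHNRNPH1 stood apart: its log2 CPM over 21276 genes correlated with replicates 2 and 3 at a Pearson r of 0.969 and 0.967, against 0.996 for every other pair of libraries within the HEK-293T groups. Its members departed from the mean of replicates 2 and 3 by a log2 ratio between -1.47 and 1.23, with 8 members over 0.5 higher and 8 over 0.5 lower. Counts of calls and the fold changes of HEK-293T that it moves across the threshold are therefore also given without that library.

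The first comparison asked how the pathway responded to siHNRNPH1 in HT-1080. Nearly the whole sterol arm was lower. At an edgeR Benjamini-Hochberg (BH) adjusted p below 0.05, 31 of 32 members were called, where 65.3% of the 16145 genes tested were called, so a call by itself sets a member little apart. The direction was uneven: 27 members were lower, against 32.6% of genes tested, and 4 were higher, against 32.7%. The members' median log2 fold change was -0.97, and the median of all genes tested was 0.01. Of the 19 sterol enzymes, 17 were lower and 2 higher, with a median log2 fold change of -1.04. Of the 7 fatty acid enzymes, 6 were lower, with a median of -0.69, and of the 6 regulators and transport proteins 4 were lower and 2 higher, with a median of -0.23. The CPM of the siNegative and siHNRNPH1 libraries did not overlap for the same 27 and 4 members, where 30.6% of genes tested lay apart with siHNRNPH1 lower and 39.9% with siHNRNPH1 higher. These are bulk RNA values, in which fewer expressing cells and less RNA per cell cannot be told apart.

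**Figure D1:**
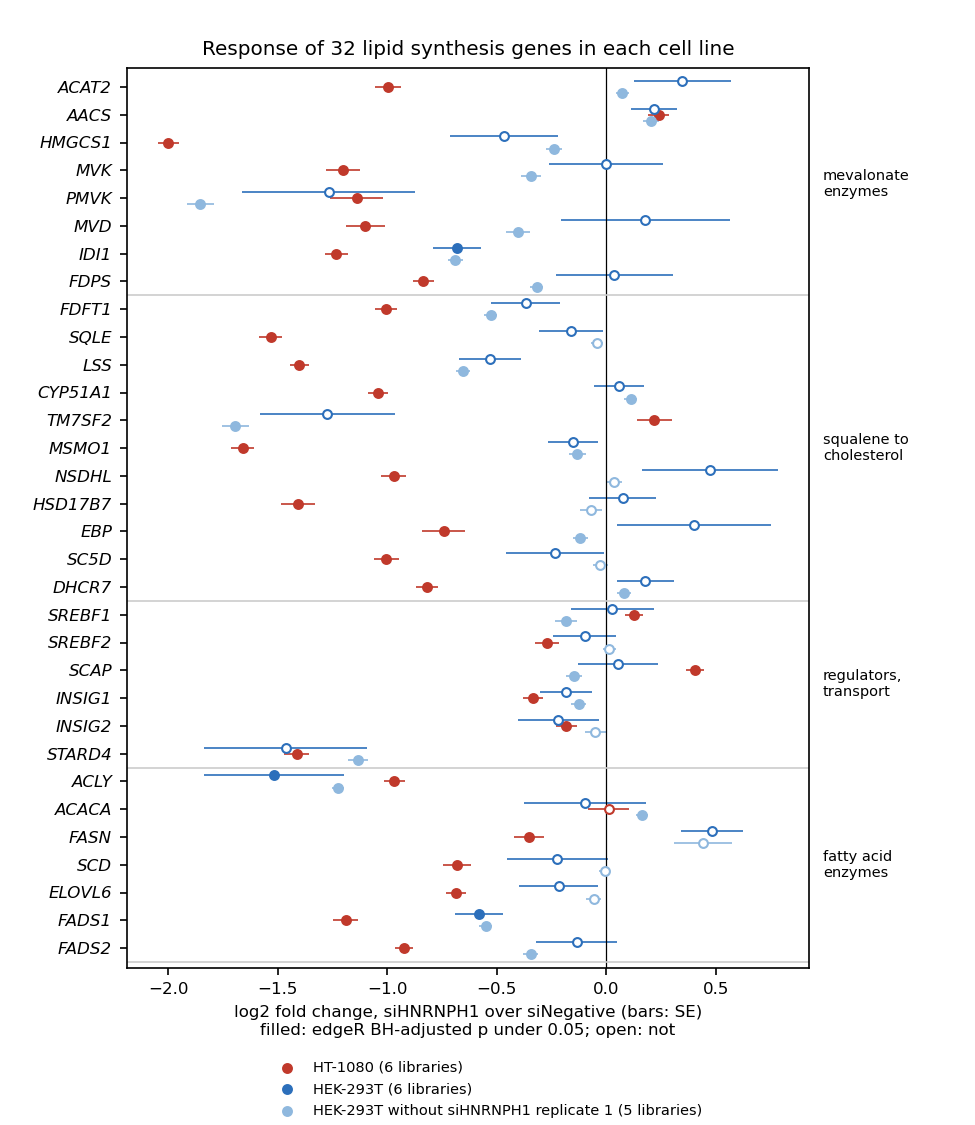
Log2 fold change of each member, siHNRNPH1 over siNegative (x axis), with its SE as a bar, in HT-1080 (red), in HEK-293T (dark blue) and in HEK-293T without siHNRNPH1 replicate 1 (light blue). Filled points passed an edgeR BH-adjusted p of 0.05; most red points of the sterol enzymes lie near or below -1, while the blue points scatter around 0.

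Among the mevalonate enzymes in HT-1080, 7 of 8 fell and 1 rose. HMGCS1 (ENSG00000112972.15), which makes HMG-CoA and so opens the pathway, stood at 224.1, 207.1 and 222.4 CPM in the siNegative libraries and at 58.1, 58.4 and 54.8 CPM in the siHNRNPH1 libraries. The groups lay far apart, with every depleted library below every control. HMGCS1 fell by 2.00 (SE 0.05) on the log2 scale (edgeR BH-adjusted p = 5.70e-09), the lowest fold change among the 32 members. IDI1 (ENSG00000067064.13), which isomerises the 5-carbon unit of the pathway, went from 105.5, 109.2 and 101.7 CPM to 45.2, 49.2 and 46.5 CPM. The groups did not overlap, and IDI1 fell by 1.23 (SE 0.05; edgeR BH-adjusted p = 6.21e-08). ACAT2, which joins the first acetyl-CoA units, the kinases MVK and PMVK, the decarboxylase MVD and FDPS, which makes farnesyl diphosphate, fell by log2 values between 0.84 for FDPS and 1.20 for MVK (edgeR BH-adjusted p-values between 3.08e-07 and 2.39e-05). PMVK, for example, was at 4.16 to 4.62 CPM in the controls and at 1.92 to 2.25 CPM after depletion. AACS (ENSG00000081760.17), which activates acetoacetate in the cytosol, moved the other way. Its 46.6, 44.6 and 47.3 CPM became 56.7, 59.0 and 55.5 CPM. AACS rose by 0.24 (SE 0.05; edgeR BH-adjusted p = 0.00170), with no overlap of the groups.

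From squalene to cholesterol, 10 of 11 enzymes fell in HT-1080 and 1 rose. SQLE (ENSG00000104549.12), the squalene epoxidase and a rate-limiting step, was at 76.8, 70.8 and 73.0 CPM in the controls and at 25.6, 27.4 and 26.9 CPM after depletion. SQLE fell by 1.53 (SE 0.05; edgeR BH-adjusted p = 1.54e-08). LSS (ENSG00000160285.15), the cyclase that makes lanosterol, went from 122.1, 118.5 and 123.9 CPM to 49.3, 46.9 and 48.3 CPM. In both genes the depleted libraries agreed within 3 CPM of each other and lay well below the controls. LSS fell by 1.40 (SE 0.04; edgeR BH-adjusted p = 9.91e-09). MSMO1 (ENSG00000052802.13), which removes methyl groups from the sterol ring, went from 136.4, 133.7 and 126.9 CPM to 46.0, 43.0 and 42.7 CPM. MSMO1 fell by 1.66 (SE 0.05; edgeR BH-adjusted p = 1.00e-08), with groups that did not overlap. CYP51A1 (ENSG00000001630.18), the lanosterol demethylase, went from 124.2, 115.5 and 118.2 CPM to 61.2, 61.0 and 59.8 CPM. CYP51A1 fell by 1.04 (SE 0.04; edgeR BH-adjusted p = 5.91e-08), again without overlap.

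Later steps were lower too. HSD17B7 (ENSG00000132196.16), a sterol ketone reductase, stood at 17.6, 16.8 and 16.2 CPM in the HT-1080 controls and at 6.53, 6.24 and 7.18 CPM after depletion. HSD17B7 fell by 1.41 (SE 0.08; edgeR BH-adjusted p = 2.98e-07), without overlap; a transcribed pseudogene shares its sequence, so the estimate is uncertain. DHCR7 (ENSG00000172893.18), which carries out a last reduction to cholesterol, went from 156.9, 148.0 and 159.2 CPM to 96.6, 91.3 and 87.8 CPM. DHCR7 fell by 0.82 (SE 0.05; edgeR BH-adjusted p = 5.03e-07), with every depleted library below every control. FDFT1, which makes squalene, and NSDHL, EBP and SC5D, which act on the ring, fell by log2 values from 0.74 for EBP to 1.01 for FDFT1 (edgeR BH-adjusted p-values between 1.34e-07 and 9.98e-05). TM7SF2 (ENSG00000149809.17), a sterol C14 reductase whose activity the lamin B receptor also holds, was the exception. It was at 8.64, 8.96 and 9.68 CPM in the controls and at 11.6, 11.3 and 10.4 CPM after depletion. TM7SF2 rose by 0.22 (SE 0.08; edgeR BH-adjusted p = 0.0354), with no overlap but a narrow gap. This call was lost without siNegative replicate 1 and without siHNRNPH1 replicate 1 or 2, at edgeR BH-adjusted p-values from 0.1 to 0.127. The rise was not shared by LBR, the gene of the lamin B receptor, which is not a member. LBR went from 126.5, 110.6 and 125.9 CPM to 59.97, 60.27 and 63.21 CPM in HT-1080, without overlap. It was called lower there (edgeR BH-adjusted p = 2.57e-07).

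Of the regulators among the members, SREBF1, SREBF2, SCAP, INSIG1 and INSIG2 changed by at most 0.41 on the log2 scale in HT-1080, in both directions. SREBF2 (ENSG00000198911.12) was at 266.6, 230.2 and 260.6 CPM in the controls and at 222.6, 215.9 and 218.6 CPM after depletion. SREBF2 fell by 0.27 (SE 0.05; edgeR BH-adjusted p = 0.00162); control replicate 2 lay nearest to the depleted libraries, yet above them. SREBF1 (ENSG00000072310.18) was at 151.6, 148.6 and 143.5 CPM and then at 169.7, 168.2 and 169.7 CPM. SREBF1 rose by 0.13 (SE 0.04; edgeR BH-adjusted p = 0.0207), a call lost without siNegative replicate 3 or without any 1 of the siHNRNPH1 libraries (edgeR BH-adjusted p-values from 0.0648 to 0.1). SCAP (ENSG00000114650.21), the escort of the SREBPs, rose from 80.5, 80.8 and 81.5 CPM to 109.8, 112.6 and 114.7 CPM. The rise of 0.41 (SE 0.04) was the highest log2 fold change among the 32 members (edgeR BH-adjusted p = 1.66e-05).

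Both anchors of SCAP were slightly lower. INSIG1 (ENSG00000186480.13), itself a known SREBP target, was at 191.6, 180.5 and 188.0 CPM in the HT-1080 controls and at 150.7, 162.3 and 151.7 CPM after depletion. INSIG1 fell by 0.34 (SE 0.05; edgeR BH-adjusted p = 1.31e-04), without overlap. INSIG2 (ENSG00000125629.16) went from 45.7, 47.7 and 45.5 CPM to 42.1, 42.4 and 43.8 CPM. INSIG2 fell by 0.18 (SE 0.05; edgeR BH-adjusted p = 0.00804), and with library size alone as the scaling it was at -0.115 and no longer called (edgeR BH-adjusted p = 0.0579). STARD4 (ENSG00000164211.13), a soluble carrier of cholesterol between membranes, changed on the scale of the enzymes. It went from 94.5, 82.9 and 93.1 CPM to 35, 35.3 and 36.0 CPM. STARD4 fell by 1.41 (SE 0.06; edgeR BH-adjusted p = 4.14e-08), with groups far apart.

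In the fatty acid arm, 6 of 7 enzymes fell in HT-1080. FADS1 (ENSG00000149485.19), the delta-5 desaturase, went from 258.4, 226.6 and 255.1 CPM to 118.6, 111.1 and 110.1 CPM. FADS1 fell by 1.19 (SE 0.06; edgeR BH-adjusted p = 1.14e-07), the largest fall of this arm. FADS2 (ENSG00000134824.14), the delta-6 desaturase, went from 157.6, 156.8 and 159.0 CPM to 88.5, 85.1 and 87.8 CPM. FADS2 fell by 0.92 (SE 0.04; edgeR BH-adjusted p = 6.38e-08), and in both genes every depleted library was below every control. ACLY (ENSG00000131473.17), which makes the cytosolic acetyl-CoA that both arms use, went from 362.2, 323.9 and 356.6 CPM to 186.0, 185.7 and 186.6 CPM. ACLY fell by 0.97 (SE 0.05; edgeR BH-adjusted p = 1.52e-07). The depleted libraries agreed within 1 CPM.

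SCD (ENSG00000099194.6), which makes monounsaturated fatty acids, was at 1014, 860.5 and 995.6 CPM in the HT-1080 controls and at 647.5, 609.0 and 616.6 CPM after depletion. SCD fell by 0.68 (SE 0.06; edgeR BH-adjusted p = 9.07e-06), without overlap. FASN (ENSG00000169710.9), the fatty acid synthase, was at 625.0, 519.6 and 625.6 CPM and then at 476.6, 491.4 and 482.9 CPM. FASN fell by 0.35 (SE 0.07; edgeR BH-adjusted p = 0.00118), with a gap set by control replicate 2, the lowest control. ELOVL6, which lengthens palmitate, fell by 0.69 (SE 0.05; edgeR BH-adjusted p = 9.26e-07). ACACA, the acetyl-CoA carboxylase, was the 1 member not called, at a log2 fold change of 0.01 (SE 0.09; edgeR BH-adjusted p = 0.931). Its controls spread from 67.6 to 90.3 CPM and contained the range of the depleted libraries, 84.6 to 88.3 CPM. Without siNegative replicate 2, the low control, ACACA was at -0.11 and called lower (edgeR BH-adjusted p = 0.00226).

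**Figure D2:**
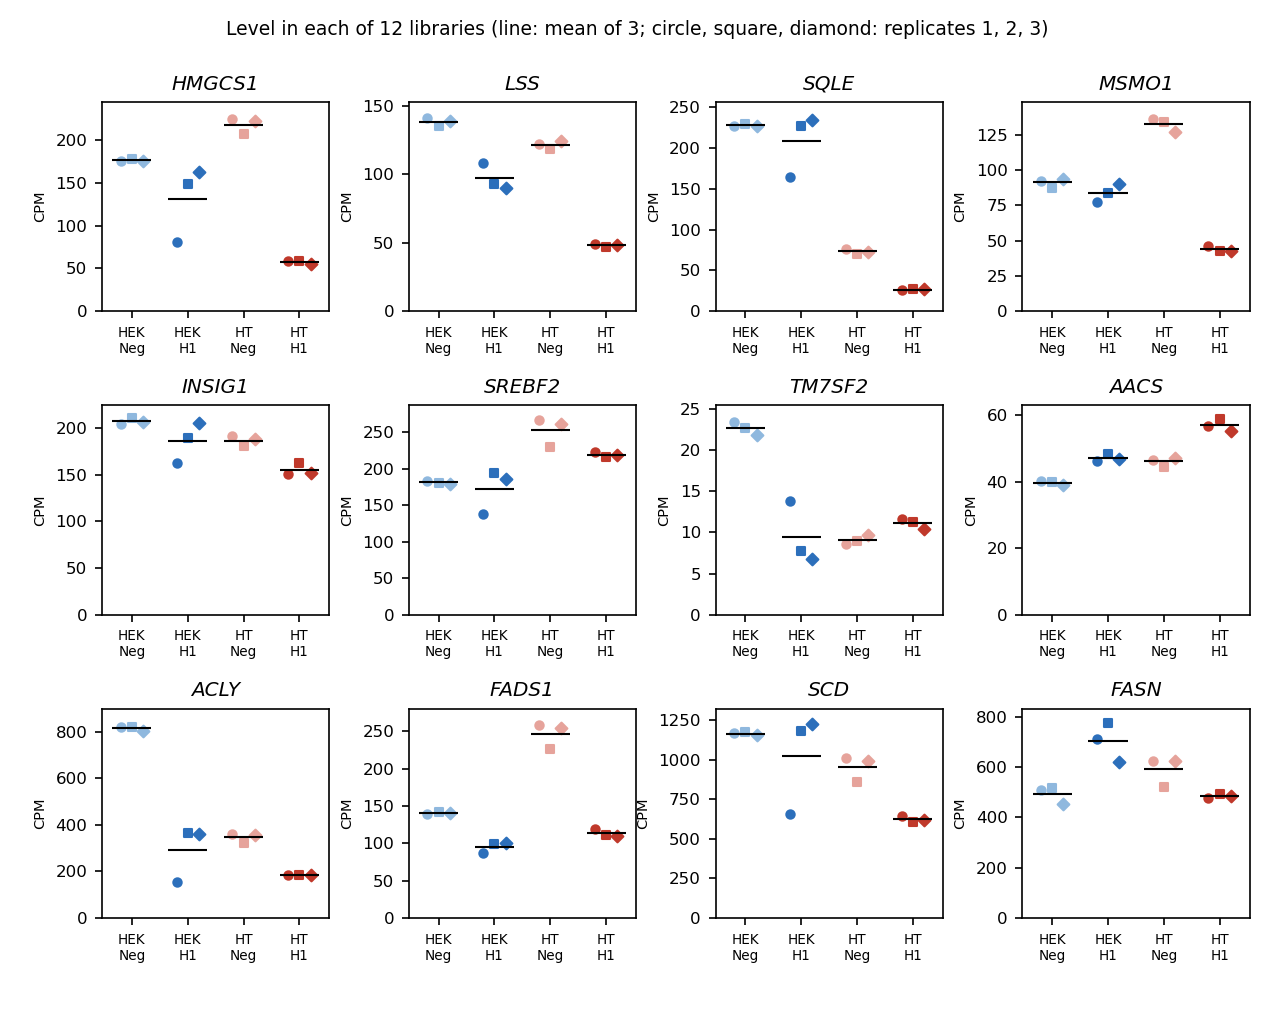
CPM (y axis, from 0) of 12 members in the 12 libraries, by group: HEK-293T siNegative (HEK Neg) and siHNRNPH1 (HEK H1), HT-1080 siNegative (HT Neg) and siHNRNPH1 (HT H1), with replicates as symbols and means of 3 as lines. The HT-1080 groups do not overlap, with a wide gap for HMGCS1 (207.1 or more against 58.4 or less). The gap is narrow for others, as for FASN (519.6 or more against 491.4 or less). HEK-293T siHNRNPH1 replicate 1 (circle) often departs from replicates 2 and 3.

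The second comparison asked the same in HEK-293T, where the members changed less and less uniformly. With all 6 libraries, edgeR called 3 of 32 members at a BH-adjusted p below 0.05, close to the 10.0% of 19966 genes called, and all 3 were lower (4.88% of genes were called lower and 5.12% higher). The median log2 fold change was -0.00 for the 19 sterol enzymes, -0.14 for the regulators and transport proteins and -0.22 for the fatty acid enzymes, with 0.02 over all genes tested. Without siHNRNPH1 replicate 1, 23 members were called, 18 lower and 5 higher, where 61.8% of 20329 genes were called, 31.3% lower and 30.5% higher. In that fit the sterol enzymes had a median of -0.13, with 11 lower and 4 higher. With all libraries the CPM groups lay apart for 9 members with siHNRNPH1 lower and 5 with it higher, where 21.0% and 22.7% of genes did. Without that library they lay apart for 15 and 9 members, against 32.5% and 41.4% of genes. The self-test on simulated counts recovered 64 of 100 genes changed 3-fold and 0 of 100 changed 1.5-fold in the HEK-293T design with all 6 libraries. It gave all libraries of a gene the same spread, estimated with replicate 1 included. In the data that library alone stood apart, so the recovery in the real libraries may differ.

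The 3 members called in HEK-293T came from both arms. ACLY was at 819.8, 822.1 and 804.1 CPM in the siNegative libraries and at 154.0, 363.6 and 361.6 CPM in the siHNRNPH1 libraries. Replicate 1 was the lowest by far, and the other depleted libraries were also below every control. ACLY fell by 1.52 (SE 0.32; edgeR BH-adjusted p = 0.0391), and by 1.23 (SE 0.03; edgeR BH-adjusted p = 8.27e-20) without replicate 1. IDI1 went from 127.0, 121.9 and 128.2 CPM to 77.3, 78.7 and 83.4 CPM, with all 3 depleted libraries alike. IDI1 fell by 0.68 (SE 0.11; edgeR BH-adjusted p = 0.0202), and by 0.69 without replicate 1 (edgeR BH-adjusted p = 1.30e-13). FADS1 went from 138.8, 141.4 and 140.4 CPM to 87.4, 98.8 and 100.3 CPM, without overlap. FADS1 fell by 0.58 (SE 0.11; edgeR BH-adjusted p = 0.0279), and by 0.55 without replicate 1 (edgeR BH-adjusted p = 5.21e-13). Leaving out any other HEK-293T library (siNegative replicate 1, 2 or 3, siHNRNPH1 replicate 2 or 3) lost all 3 calls, with edgeR BH-adjusted p-values between 0.0600 and 0.162 and fold changes that stayed negative.

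Several members were lower in every HEK-293T siHNRNPH1 library without being called by edgeR with all 6 libraries. DESeq2 on the same libraries called 4 of the 5 described next, with adjusted p-values of 0.00158 for STARD4, 0.00488 for LSS, 0.00116 for TM7SF2 and 0.0114 for PMVK, and not HMGCS1. STARD4 went from 49.7, 47.7 and 49.1 CPM to 8.37, 22.2 and 24.2 CPM. Its log2 fold change was -1.46 (SE 0.37; edgeR BH-adjusted p = 0.0629), and -1.13 without replicate 1 (edgeR BH-adjusted p = 1.17e-15). LSS went from 140.7, 135.0 and 138.7 CPM to 108.2, 93.0 and 89.8 CPM, with no overlap. For LSS the values were -0.53 (SE 0.14; edgeR BH-adjusted p = 0.0673) and, without replicate 1, -0.65 (edgeR BH-adjusted p = 5.71e-14). TM7SF2 went from 23.4, 22.7 and 21.8 CPM to 13.8, 7.75 and 6.79 CPM, with replicate 1 between the controls and the other depleted libraries. TM7SF2 was at -1.27 (SE 0.31; edgeR BH-adjusted p = 0.0559), and at -1.69 without replicate 1 (edgeR BH-adjusted p = 3.06e-16). HMGCS1 went from 175.1, 177.3 and 175.5 CPM to 81.2, 148.2 and 162.2 CPM, and its distance from the controls came mostly from replicate 1. HMGCS1 was at -0.47 (SE 0.25; edgeR BH-adjusted p = 0.290) with all libraries and at -0.24 (SE 0.04; edgeR BH-adjusted p = 6.72e-06) without replicate 1. PMVK, at 21.7 to 23.5 CPM in the controls, was at 15.4, 6.93 and 6.17 CPM after depletion. PMVK was at -1.27 (SE 0.39; edgeR BH-adjusted p = 0.105), and at -1.85 without replicate 1 (edgeR BH-adjusted p = 7.29e-17).

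Other sterol enzymes stayed near their control level in HEK-293T replicates 2 and 3. SQLE was at 227.0, 230.1 and 227.6 CPM in the controls and at 164.8, 226.7 and 234.1 CPM after depletion, with replicates 2 and 3 close to the controls and replicate 1 below them. SQLE was at -0.16 (SE 0.15; edgeR BH-adjusted p = 0.531), and at -0.04 without replicate 1 (edgeR BH-adjusted p = 0.196). MSMO1 was at 92.5, 87.5 and 94 CPM and then at 77.6, 83.6 and 89.8 CPM, with overlapping groups. MSMO1 was at -0.15 (SE 0.11; edgeR BH-adjusted p = 0.442), and at -0.13 without replicate 1 (edgeR BH-adjusted p = 0.00596). CYP51A1 was at 130.9, 131.1 and 129.5 CPM and then at 122.5, 144.2 and 149.0 CPM, with replicate 1 below and the others above the controls. CYP51A1 was at 0.06 (SE 0.11; edgeR BH-adjusted p = 0.785), and at 0.11 without replicate 1 (edgeR BH-adjusted p = 0.00291). HSD17B7 was at 26.2, 23.3 and 23.9 CPM and then at 30, 24 and 24.4 CPM, overlapping, with log2 fold changes of 0.07 and, without replicate 1, -0.07 that edgeR did not call. DHCR7 was at 125.3, 125.3 and 128.6 CPM and then at 157.1, 144.2 and 134.1 CPM, above every control. DHCR7 was at 0.18 (SE 0.13; edgeR BH-adjusted p = 0.440), and was called higher without replicate 1, at 0.08 (SE 0.03; edgeR BH-adjusted p = 0.0353). AACS, which was higher in HT-1080, went from 40.3, 40 and 39 CPM to 46.2, 48.5 and 46.8 CPM in HEK-293T. AACS was at 0.22 (SE 0.11; edgeR BH-adjusted p = 0.249), and at 0.20 without replicate 1 (edgeR BH-adjusted p = 5.96e-05).

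Among the other members, HEK-293T siHNRNPH1 replicate 1 set the sign or size of the change. ACAT2, MVK, MVD, FDPS, NSDHL and EBP were each higher in replicate 1 than in every control, for example EBP at 165.4 CPM against 79.4 to 81.2 CPM in the controls and 77.0 and 76.8 CPM in replicates 2 and 3. ACAT2 and MVK had fold changes of 0.35 and -0.00 with all libraries and were called without replicate 1, ACAT2 higher at 0.07 (edgeR BH-adjusted p = 0.0395) and MVK lower at -0.34 (edgeR BH-adjusted p = 8.93e-07). MVD, FDPS and EBP had fold changes of 0.18, 0.04 and 0.40 with all libraries and were called lower without replicate 1, at -0.40, -0.32 and -0.12. SC5D, ACACA and ELOVL6 lay lower in replicate 1 than in any other HEK-293T library, for example ACACA at 121.0 CPM against 218.5 to 223.0 CPM in the controls and 254.1 and 260.0 CPM in the other depleted libraries. ACACA was at -0.10 with all libraries and was called higher without replicate 1, at 0.16 (edgeR BH-adjusted p = 2.97e-05). FDFT1 was at -0.37 and, without replicate 1, at -0.53 (edgeR BH-adjusted p = 7.68e-13).

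Of the 6 regulators and transport proteins in HEK-293T, edgeR called 0 with all libraries, with 1 at an unadjusted p under 0.05 (DESeq2 called 1), and 4 without replicate 1, all lower: SREBF1, SCAP, INSIG1 and STARD4. SREBF2 was at 182.8, 180.9 and 179.6 CPM in the controls and at 137.8, 194.2 and 186.1 CPM after depletion. INSIG1 was at 205.0, 210.9 and 206.4 CPM and then at 163.2, 189.5 and 205.9 CPM. INSIG2 was at 21.8, 22.7 and 22 CPM and then at 13.9, 21.8 and 22.7 CPM. In all 3 of these genes replicate 1 was the lowest library of the line. INSIG1 was at -0.18 (SE 0.12; edgeR BH-adjusted p = 0.383), and was called lower without replicate 1, at -0.13 (SE 0.03; edgeR BH-adjusted p = 0.00330). SREBF2 and INSIG2 were called in neither fit, at -0.10 and -0.22 with all libraries and 0.01 and -0.05 without replicate 1. SREBF1 was at 32.9, 33.8 and 32.8 CPM and then at 42.0, 32.5 and 28.2 CPM. SCAP was at 96.0, 100.2 and 99.7 CPM and then at 125.7, 97.3 and 87.9 CPM. In both genes replicate 1 was the highest, and without it they were called lower, SREBF1 at -0.18 (edgeR BH-adjusted p = 0.00285) and SCAP at -0.15 (edgeR BH-adjusted p = 0.00235). The other desaturase and synthase genes were mixed. SCD was at 1167, 1175 and 1156 CPM and then at 659.8, 1183 and 1229 CPM. FADS2 was at 65.3, 66.0 and 67.3 CPM and then at 74.7, 55.0 and 53.4 CPM. FASN was at 510.4, 517.2 and 454.1 CPM and then at 710.5, 775.6 and 619.1 CPM. For SCD replicate 1 alone was low, for FADS2 it alone was above the controls, and for FASN all 3 depleted libraries lay above all controls. FADS2 was at -0.14 (SE 0.19; edgeR BH-adjusted p = 0.686), and was called lower without replicate 1, at -0.35 (SE 0.04; edgeR BH-adjusted p = 1.31e-08), while SCD was called in neither fit, at -0.22 and -0.01. FASN was at 0.48 (SE 0.14; edgeR BH-adjusted p = 0.0877), and at 0.44 without replicate 1 (edgeR BH-adjusted p = 0.0645). Its direction was thus opposite to that in HT-1080, and edgeR called it in neither of these fits. DESeq2 on the same 6 libraries called FASN higher, at 0.48 (DESeq2 adjusted p = 0.0125). So did edgeR with all 12 libraries in 1 fit, at 0.55 (edgeR BH-adjusted p = 0.00816).

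**Figure D3:**
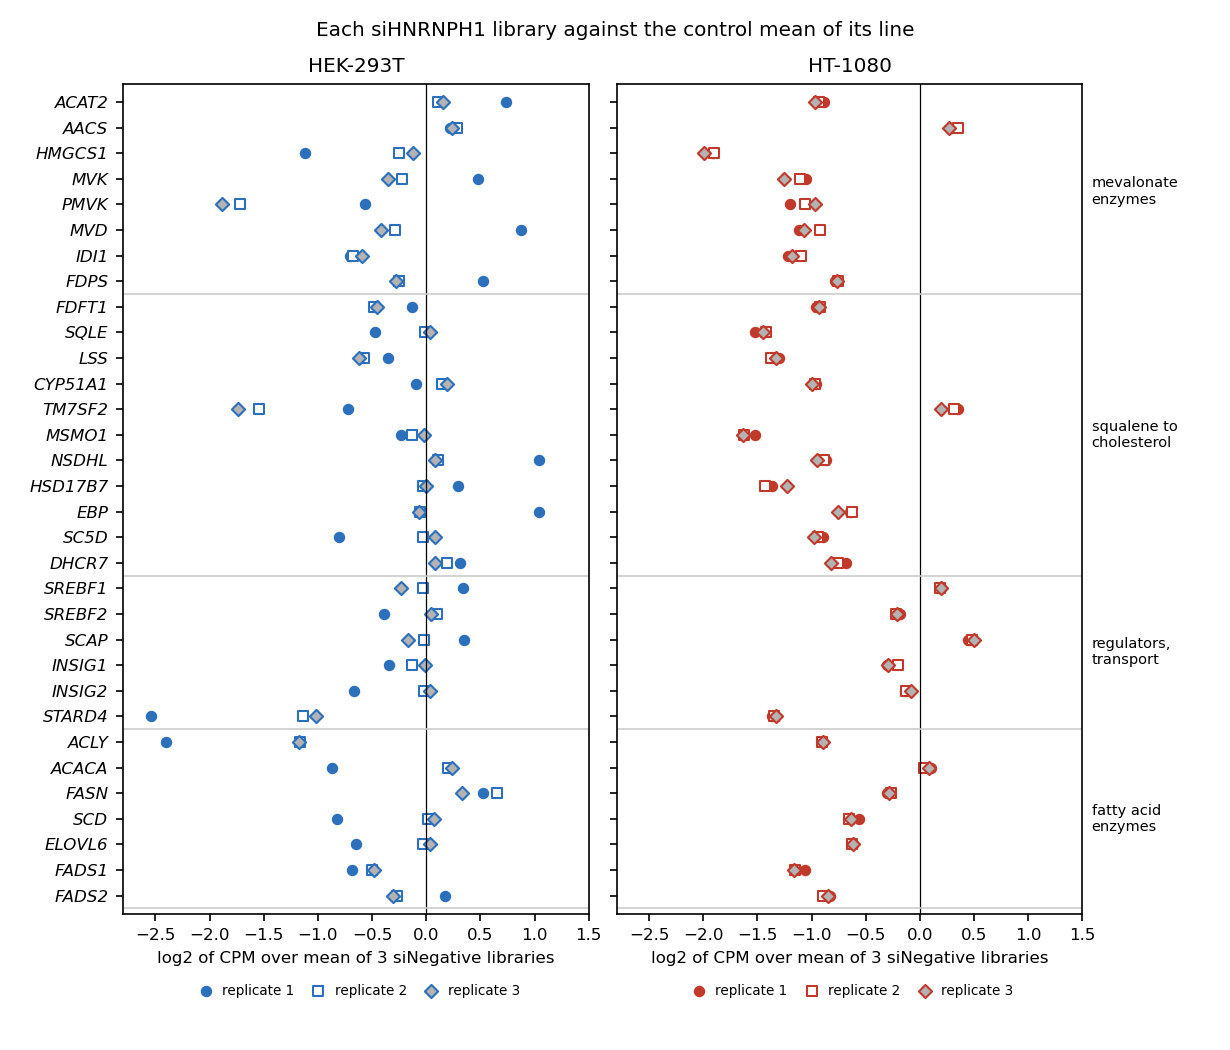
Log2 ratio of each siHNRNPH1 library's CPM to the mean of the 3 siNegative libraries of its line (x axis), for every member, in HEK-293T (left) and HT-1080 (right). The 3 HT-1080 libraries lie close together for each member, whereas HEK-293T replicate 1 (filled circle) lies away from replicates 2 and 3 by log2 ratios between -1.47 and 1.23.

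The third comparison asked whether the response differed between the lines, by the cell line by siRNA interaction over all 12 libraries. The sterol enzymes fell further in HT-1080. The interaction was called for 18 of 32 members (edgeR BH-adjusted p below 0.05), where 19.0% of 21276 genes were called. Of these, 17 were more negative in HT-1080 (10.8% of genes were) and 1 was more positive (8.13%). The sterol enzymes held 15 of the 18, 14 of them more negative in HT-1080, and their median difference was -1.17, with -0.07 over all genes tested. The fatty acid enzymes held 3 (FASN, FADS1 and FADS2), with a median difference of -0.54, and with all libraries edgeR called 0 of the 6 regulators and transport proteins, with 0 at an unadjusted p under 0.05 (DESeq2 called 0, with 1 at an unadjusted p under 0.05). Without HEK-293T siHNRNPH1 replicate 1, edgeR called all 6, SCAP at 0.50 and SREBF1 at 0.26, and SREBF2 at -0.34, STARD4 at -0.33, INSIG1 at -0.26 and INSIG2 at -0.18. Without HEK-293T siHNRNPH1 replicate 1, 30 members were called, 25 more negative and 5 more positive, where 49.0% of genes were called, 26.4% and 22.7% in each direction. The 18 remained among these 30. Scaling by library size alone moved the median difference of all genes by 0.11 on the log2 scale.

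MSMO1, CYP51A1, SQLE, HSD17B7 and DHCR7 had the smallest interaction p-values of the members. MSMO1 differed by -1.58 (SE 0.11; interaction edgeR BH-adjusted p = 1.12e-05), HT-1080 minus HEK-293T, and by the same -1.58 without replicate 1. CYP51A1 differed by -1.17 (SE 0.11; interaction edgeR BH-adjusted p = 4.50e-05), and by -1.20 without replicate 1. SQLE differed by -1.44 (SE 0.14; interaction edgeR BH-adjusted p = 6.87e-05), and by -1.54 without it. These 3 enzymes act on squalene, on lanosterol and on the methyl groups of the ring. HSD17B7 differed by -1.56 (SE 0.19; interaction edgeR BH-adjusted p = 2.86e-04), and by -1.39 without replicate 1. DHCR7 differed by -1.07 (SE 0.15; interaction edgeR BH-adjusted p = 6.43e-04), and by -0.95 without it. HMGCS1 differed by -1.60 (SE 0.24; interaction edgeR BH-adjusted p = 0.00119), and LSS, lower in every depleted library of both lines, by -0.95 (SE 0.16; interaction edgeR BH-adjusted p = 0.00185).

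Some members gave other patterns. TM7SF2 differed by 1.41 (SE 0.35, interaction edgeR BH-adjusted p = 0.0183), and by 1.86 without replicate 1. Its fold change was negative in HEK-293T, not called by edgeR with all 6 libraries. In HT-1080 it was positive, a call that several alternative fits lost. FASN, higher in HEK-293T and lower in HT-1080, differed by -0.91 (SE 0.17; interaction edgeR BH-adjusted p = 0.00335). IDI1 and FADS1, called lower in both lines, still differed, by -0.63 (interaction edgeR BH-adjusted p = 0.00343) and -0.68 (interaction edgeR BH-adjusted p = 0.00192). STARD4 differed by -0.01 (SE 0.37; interaction edgeR BH-adjusted p = 1), and by -0.33 (SE 0.08; interaction edgeR BH-adjusted p = 0.00158) without replicate 1. PMVK differed by 0.04 (SE 0.47; interaction edgeR BH-adjusted p = 1), and by 0.66 (SE 0.14; interaction edgeR BH-adjusted p = 7.64e-04) without replicate 1. ACLY differed by 0.49 (SE 0.31; interaction edgeR BH-adjusted p = 0.328), and by 0.21 without replicate 1 (interaction edgeR BH-adjusted p = 0.0105). AACS differed by -0.05 (SE 0.11; interaction edgeR BH-adjusted p = 0.809), and by -0.01 (SE 0.06; interaction edgeR BH-adjusted p = 0.904) without replicate 1. The call for FDPS was lost without any 1 of the siNegative libraries of either line or of the HT-1080 siHNRNPH1 libraries, and that for SC5D without any of these but HT-1080 siNegative replicate 2. FDFT1 lost its call without HT-1080 siNegative replicate 2 and without HT-1080 siHNRNPH1 replicate 1 or 3. In these fits the interaction edgeR BH-adjusted p-values lay between 0.0503 and 0.108. MVD and EBP, at -1.37 (interaction edgeR BH-adjusted p = 0.0562) and -1.23 (interaction edgeR BH-adjusted p = 0.0609) with all libraries, were called without any 1 of the HEK-293T siHNRNPH1 libraries.

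**Figure D4:**
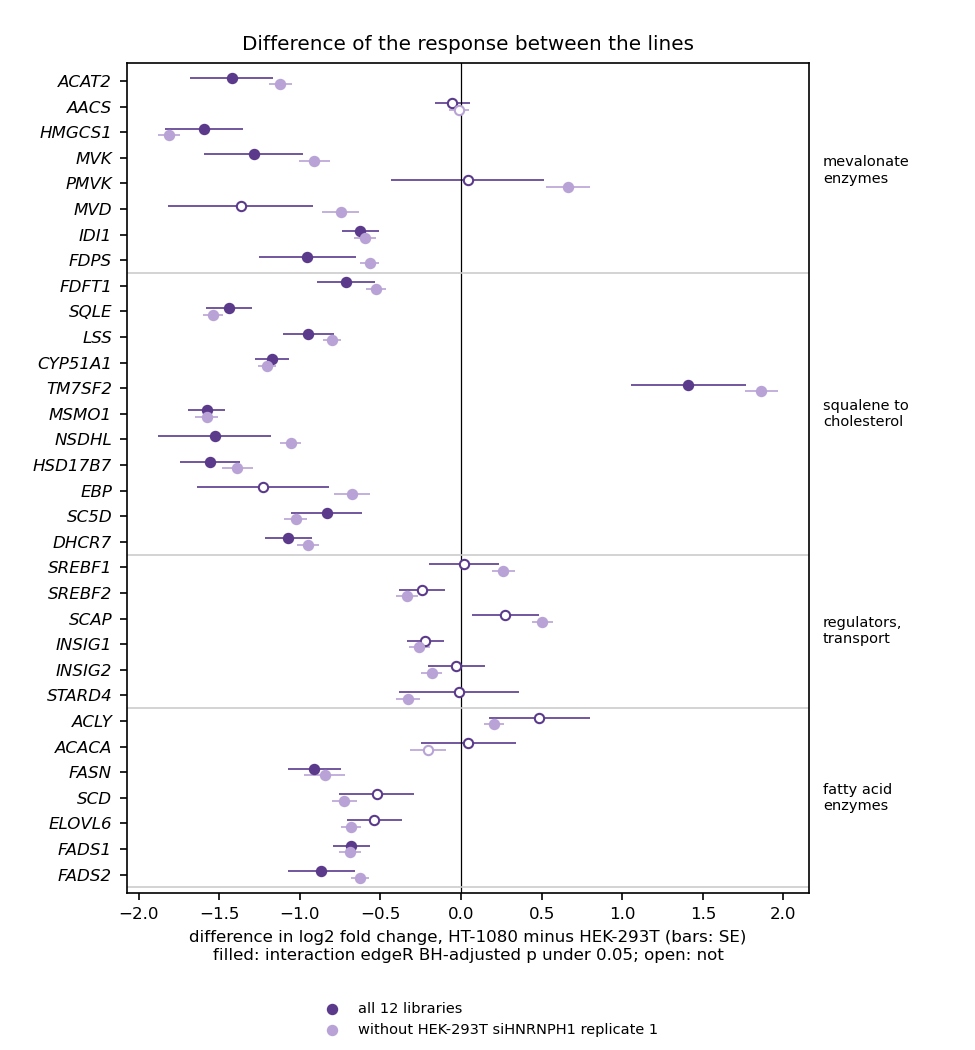
Difference in log2 fold change, HT-1080 minus HEK-293T (x axis), with its SE, for every member, from all 12 libraries (dark) and without HEK-293T siHNRNPH1 replicate 1 (light); filled points passed an interaction edgeR BH-adjusted p of 0.05. Most sterol enzymes lie between -0.63 and -1.60, TM7SF2 lies at 1.41, and the regulators and STARD4 lie between -0.24 and 0.27 with all libraries (open) and between -0.34 and 0.50 without that library (filled).

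The last comparison asked whether the members' transcripts changed in their shares, since HNRNPH1 regulates splicing. A shift was counted where a transcript's mean share of its gene's expected counts moved by at least 20 percentage points and the 3 and 3 libraries did not overlap, in genes whose mean count reached 50 in both groups. In HEK-293T, 3 of 30 eligible members shifted (ACACA, LSS and SCAP), where 5.82% of genes did. None shifted without siHNRNPH1 replicate 1, where 5.56% of genes did. In HT-1080, 2 of 30 shifted (LSS and NSDHL), where 3.35% of genes did, and none shifted without siNegative replicate 2. Without siHNRNPH1 replicate 2 or 3, of the members only NSDHL shifted there. With 3 libraries against 3, the smallest p an exact permutation test (two-sided) can give is 0.1. Shares of single transcripts are RSEM's estimates from short reads, and their depth is the gene's count.

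LSS was the member counted as shifted in both lines, but a different transcript met the 20-point rule in each. ENST00000397728.8 met it in HEK-293T (-24.8 points) and not in HT-1080 (-15.9 points). ENST00000457828.6 met it in HT-1080 (20.2 points) and not in HEK-293T (13.7 points). The share of ENST00000397728.8 in HEK-293T was 72.4%, 70.2% and 71.6% with siNegative and 24.9%, 57.8% and 57.2% with siHNRNPH1. In HT-1080 it was 59.0%, 62.4% and 57.1%, then 52.3%, 40.5% and 38.0%. It was lower in every depleted library of both lines (exact permutation p = 0.1 in each). ENST00000457828.6 gained share, from 1.94%, 3.31% and 0.974% to 26.9%, 11.5% and 8.83% in HEK-293T. In HT-1080 it went from 21.9%, 15.9% and 20.9% to 30.8%, 43.4% and 45%. The groups did not overlap in either line (exact permutation p = 0.1 in each).

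NSDHL, which acts with MSMO1 in removing methyl groups, shifted in HT-1080. ENST00000370274.8 held 63.8%, 46.6% and 60.8% of its counts with siNegative and 83.4%, 80.7% and 81.2% with siHNRNPH1. In HEK-293T it held 64.8%, 69.6% and 70.8%, then 33.6%, 89.4% and 84.6%. Replicate 1 thus moved opposite to replicates 2 and 3, and the groups overlapped. SCAP's ENST00000265565.10 was at 86.4%, 80.8% and 82.1% in HEK-293T controls and at 48.6%, 64.1% and 66.3% after depletion, with no overlap (exact permutation p = 0.1). In HT-1080 its mean share went from 59.7% to 56.8% with overlapping groups. ACACA's ENST00000614428.4 was at 65.8% to 67.0% in the HEK-293T controls and at 6.56%, 64.8% and 65.1% after depletion, so that its shift lay in replicate 1 alone.

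**Figure D5:**
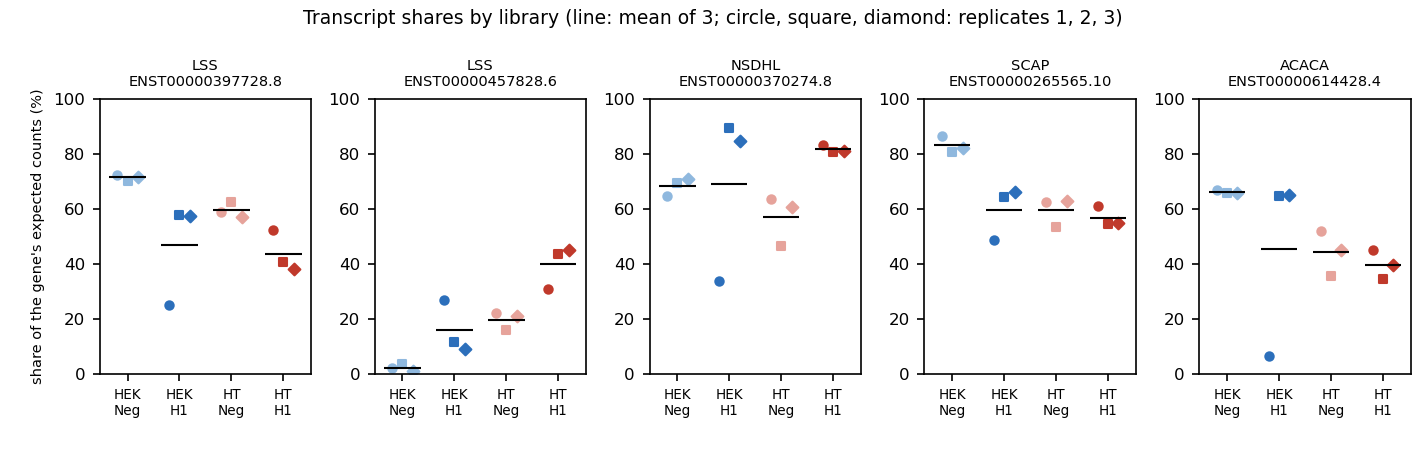
Share of a transcript in its gene's expected counts (y axis, percent) in the 12 libraries, by group as in the plot of CPM by library, for 5 transcripts of 4 members, with means of 3 as lines. The first LSS transcript falls and the second rises in every depleted library of both lines; in NSDHL and ACACA, HEK-293T siHNRNPH1 replicate 1 (circle) departs from the other two.

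The IsoSeq pools listed 314, 459, 398 and 291 transcript models at the members in HEK-293T siNegative, HEK-293T siHNRNPH1, HT-1080 siNegative and HT-1080 siHNRNPH1, of 64705, 94847, 72186 and 68078 models in all. Each model counts once whatever its abundance, and with 1 pool per group there is no replicate check. LSS had 17, 20, 16 and 8 models. Of 29 LSS junctions carried by at least 10% of the models of some pool, none had 95% Clopper-Pearson intervals that separated the siRNAs in either line. An intron at chr21:46213836-46216388, which shares its lower end with the junction chr21:46213836-46215179 of most models but reaches farther, was carried by 0 of 12, 2 of 15, 0 of 12 and 1 of 8 spanning models in the same order. The intervals, which cover counting error only, were 0% to 26.5%, 1.66% to 40.5%, 0% to 26.5% and 0.316% to 52.7%, so a difference was not detectable with so few models. Another LSS intron, chr21:46216525-46221853, was carried by 0 of 11, 2 of 15, 0 of 11 and 0 of 8 spanning models in that order. HMGCS1 had 17 and 28 models in HEK-293T and 23 and 6 in HT-1080, for siNegative and siHNRNPH1.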

How the data were processed

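The members and all lists were chosen with earlier results of these data known. For short reads the authors deposited expected counts of each transcript, estimated with RSEM on build GRCh38.p13 per the submitters' processing notes; version, aligner, annotation release and strandedness are not given in the sources used here. The deposited IsoSeq files list exons of collapsed models (unit other, no counts). Of the value columns, 0 were unmatched. Expected counts were summed per gene, rounded, filtered (filterByExpr), TMM-scaled and tested with edgeR 4.0.16 quasi-likelihood tests (two-sided, robust; R 4.3.3), per line on 6 libraries and as an interaction on 12, BH-adjusted over all genes, threshold 0.05. SEs come from the F statistic. CPM uses the summed counts (107.7 to 121.0 and 27.3 to 32.7 M per library), so its ratios can differ from fitted fold changes, and compares no genes with each other. Alternatives were other scalings, no filter, DESeq2 1.42.0, a non-robust fit, all 12 libraries in 1 fit, a replicate block and leaving out each library.

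Genes given in full were named by a rule: 8 chosen symbols, the 2 per direction and arm with the smallest p in HT-1080, the 5 with the smallest interaction p and all called in HEK-293T. PMVK and the replicate 1 examples EBP and ACACA were added after their values were seen, as were the HMGCS1 model count and the LSS introns given singly. The same holds, among other lipid genes, for LBR, MBTPS2, HACD3, SCD5, ERG28, ELOVL1 and HSD17B12. RefSeq spans (GRCh38.p14) named IsoSeq loci; 20 of 32 members overlap another RefSeq gene (FADS1 and FADS2 each other), whose reads may be shared without strand. On simulated counts the tests recovered 99 of 100 genes changed 3-fold in HT-1080, 64 in HEK-293T and 49 for the interaction (15524, 19296 and 20398 genes). Of 100 genes changed 1.5-fold they recovered 85, 0 and 1 in the same order.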

Additional observations from a re-analysis of the deposited data

Results flagged for a closer look

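The response to siHNRNPH1 differed between the lines by the edgeR interaction for 18 members, given as HT-1080 minus HEK-293T in log2 fold change. Among the mevalonate enzymes the differences were -1.60 for HMGCS1, -1.42 for ACAT2, -1.29 for MVK, -0.95 for FDPS and -0.63 for IDI1. From squalene to cholesterol they were -1.58 for MSMO1, -1.56 for HSD17B7, -1.53 for NSDHL, -1.44 for SQLE, -1.17 for CYP51A1, -1.07 for DHCR7, -0.95 for LSS, -0.83 for SC5D, -0.71 for FDFT1 and 1.41 for TM7SF2. In the fatty acid arm they were -0.91 for FASN, -0.87 for FADS2 and -0.68 for FADS1. Of 24 other lipid genes the interaction was called by edgeR for 8, 5 more negative and 3 more positive in HT-1080, where 19.0% of all genes were called. These were TMEM97 (-2.34), HACD3 (-0.85), ERG28 (-0.83), ELOVL1 (-0.77), ELOVL5 (-0.59), ABCG1 (1.81), MBTPS1 (0.44) and HSD17B12 (0.41). Without HEK-293T siHNRNPH1 replicate 1 it was called for 18 of the 24, where 49.0% of all genes were. Line, medium and depth cannot be told apart in these differences, and HEK-293T siHNRNPH1 replicate 1, whose members departed from replicates 2 and 3 by log2 ratios from -1.47 to 1.23, enters all of them.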

How the results depend on the processing

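The HT-1080 calls kept their direction in the alternatives run, except that ACACA, not called with all libraries, was called lower at -0.114 without siNegative replicate 2 (-0.114 to 0.073 over the fits that left out 1 library). The number of members called there ranged from 25 (all 12 libraries in 1 fit) to 32. By scaling to library size alone the median log2 fold change in HT-1080 was -0.975 for the sterol enzymes and -0.16 for the regulators and transport proteins. In HEK-293T the members called numbered 1 without the filter, 8 with DESeq2, 9 with all 12 libraries in 1 fit and 0 to 23 with 1 library left out, the 23 without siHNRNPH1 replicate 1; the cause was not tested. The sterol median in HEK-293T was 0.071 with all 12 libraries in 1 fit and -0.132 to 0.042 with 1 library left out. Without siHNRNPH1 replicate 1 the fold changes of MVD, FDPS, EBP, SREBF1, SCAP and ACACA changed sign and were called; with 1 library left out they ranged from -0.404 to 0.41 for MVD, -0.319 to 0.182 for FDPS, -0.119 to 0.598 for EBP, -0.185 to 0.155 for SREBF1, -0.148 to 0.165 for SCAP and -0.269 to 0.163 for ACACA. HNRNPH1 in HEK-293T was between -1.893 and -1.585 with 1 library left out and was called in 2 of these 6 fits. The interaction was called for 15 to 30 members with 1 library left out and for 14 without the filter. With a threshold of 10 points, 6 members had a transcript shift in each line; with 1 library left out the number was 0 to 4 in HEK-293T and 0 to 2 in HT-1080.

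The deviations of same-numbered libraries from their group means correlated at -0.023 to 0.051. In HEK-293T each siNegative library correlated best with the siHNRNPH1 library of its own number, which did not hold in HT-1080. With 3 libraries per group, correlations this near zero cannot decide whether the replicate numbers pair the libraries. The main fits took the libraries as unpaired. With a replicate block, edgeR called 0 members in HEK-293T, with 8 at an unadjusted p under 0.05 (and 0 of 19966 genes, with 4169), the sterol median was -0.062, and HNRNPH1 was at -1.793 (edgeR BH-adjusted p = 0.0665). The block called 30 members in HT-1080 and 14 for the interaction. Depth differs with the line, and its part in the calls was not tested.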

Other observations

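A list of 24 other lipid genes, chosen with earlier results known, was measured alongside the members. In HT-1080 edgeR tested 23 of them (MID1IP1 did not pass the filter) and called 14 lower and 5 higher, where 32.6% and 32.7% of genes were called, and their median log2 fold change was -0.21. TMEM97, a sterol-responsive membrane protein of the endoplasmic reticulum, went from 21.1, 19.5 and 21.3 CPM to 5.03, 5.24 and 4.35 CPM. TMEM97 fell by 2.14 (SE 0.09; edgeR BH-adjusted p = 3.91e-08), further than any member. SOAT1, which esterifies cholesterol for storage, fell by 1.11 (SE 0.05; edgeR BH-adjusted p = 6.33e-08), and ELOVL5, an elongase of polyunsaturated fatty acids, by 1.15 (SE 0.05; edgeR BH-adjusted p = 6.79e-08).

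The cholesterol exporters moved the other way in HT-1080. ABCA1 went from 74.6, 51.2 and 73.5 CPM to 150.5, 145.7 and 142.7 CPM, and ABCG1 from 3.26, 3.55 and 4.59 CPM to 11.7, 11.4 and 11.9 CPM. ABCA1 rose by 1.07 (SE 0.12; edgeR BH-adjusted p = 2.64e-05) and ABCG1 by 1.55 (SE 0.12; edgeR BH-adjusted p = 2.29e-06). MBTPS1, the site-1 protease that cuts SREBP precursors, rose by 0.82 (SE 0.05; edgeR BH-adjusted p = 4.72e-07), and MBTPS2, the site-2 protease, by 0.74 (SE 0.09; edgeR BH-adjusted p = 4.21e-05). In HEK-293T edgeR called 2 of the 24, HACD3 higher and SCD5 lower, where 10.0% of genes were called. Without siHNRNPH1 replicate 1 it called 18 of the 24, 6 higher and 12 lower, where 61.8% of genes were called. MBTPS2 was at 1.09 in HEK-293T (SE 0.33; edgeR BH-adjusted p = 0.101), and at 1.39 without replicate 1 (edgeR BH-adjusted p = 8.31e-19). MBTPS1 was at 0.31 there (SE 0.13; edgeR BH-adjusted p = 0.179), and at 0.40 without replicate 1 (edgeR BH-adjusted p = 4.47e-11). In HEK-293T, TMEM97 was at 103.3, 106.7 and 105.2 CPM and then at 129.1, 106.5 and 111.2 CPM, with overlapping groups and a log2 fold change of 0.12 (edgeR BH-adjusted p = 0.646), or -0.01 without replicate 1. ABCA1 was at 5.61 to 5.96 CPM in the HEK-293T controls and at 1.68, 7.83 and 7.90 CPM after depletion. Replicate 1 alone lay below the controls, and replicates 2 and 3 lay above them. ABCA1 was at -0.04 (SE 0.53, edgeR BH-adjusted p = 0.969), and was called higher without replicate 1, at 0.39 (edgeR BH-adjusted p = 7.75e-05). ABCG1 was at -0.33 in HEK-293T (SE 0.13, edgeR BH-adjusted p = 0.171), and was called lower without replicate 1, at -0.32 (edgeR BH-adjusted p = 0.00637).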
